A study of Mus musculus with 36 samples.

Results

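The 41 genes described here are interferon-stimulated genes and genes of antigen presentation, read in the livers of 36 male mice aged 2 to 3 months. They were chosen by name. All 41 had at least 100 counts summed over the 36 libraries, as had 17994 of the 54532 genes in the count table. By role they fall into 4 genes of interferon signalling, 3 genes of RNA sensing and negative feedback, 18 antiviral effectors, 7 interferon-inducible GTPases, 5 genes of MHC class I presentation and 4 of MHC class II. The control mice (WT) were heterozygous, THRB+/-, and the knockout mice (KO) were THRB-/-, a whole-body knockout in which the DNA binding of thyroid hormone receptor beta is impaired, so all mice carried at least 1 altered allele. All were fed normal chow ad libitum under 12 h of light and 12 h of darkness, and no treatment is given in the labels. Livers were taken at 6 Zeitgeber times (ZT, hours after lights on) 4 h apart, from 3 WT and 3 KO mice each.

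Interferons are secreted signals that cells release on sensing a virus. Type I interferons act through a receptor that activates STAT2, which works with IRF9 at interferon-stimulated response elements in the promoters of antiviral genes. Interferon gamma acts at gamma-activated sites and induces IRF1, the GTPases and the MHC genes. MHC class I is made by nearly all cells and shows peptides from inside the cell, whereas MHC class II belongs mainly to macrophages, dendritic cells and B cells. In liver, Kupffer cells are the resident macrophages. Even without infection, tissues hold a basal level of many of these transcripts.

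The libraries held between 29063273 and 42530551 counts assigned to genes. Levels are given as counts scaled to library size (CPM) after TMM scaling. The hepatocyte marker Alb was at 41440 to 75020 CPM, and the Kupffer cell marker Clec4f at 63.4 to 162 CPM. Thrb read 24.3 to 38.5 CPM in WT and 26.2 to 37.7 CPM in KO. Counts over the whole gene do not separate altered from intact transcripts, so they give no check of the genotype labels. WT mouse b of ZT18 stood apart in its Kupffer cell and macrophage markers, which averaged 1.39 above the mean of all mice on the log2 scale (11 of 11 markers measured, highest mouse of 36). WT mouse c of ZT18 stood apart in the GTPases, which averaged 1.03 above the mean. The results at ZT18 are therefore also given without each of these 2 mice. A change in bulk liver cannot tell fewer cells of a type from less RNA per cell.

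The promoters of the members were read from RefSeq (GRCm38.p6) as windows from 250 bases before to 50 bases after each start site. A window was found for 35 of the 41 members, not for Usp18, Rtp4, Oas2, Parp14, Cd74 and H2-Ab1. In 27 of these 35 the start site met the first part of a GENCODE transcript of the gene, and in the others it did not. On either strand, the core letters of the interferon-stimulated response element, GAAANNGAA, stood in the windows of 19 of 35 members (54.3%) and of 9.76% of 27025 genes with a window. The letters of the gamma-activated site, TTCNNNGAA, stood in 8 of 35 (22.9%) and in 9.55% of all genes. They can overlap the response element core. The letters of the Y box of MHC promoters, CTGATTGG, stood in 5 of 35 (14.3%) and in 4.70% of all genes. The members with the core letters included 6 of the 7 GTPases, 9 of 15 effectors with a window and both sensors with a window, Ddx58 and Ifih1. Those with the Y box letters were H2-K1, H2-D1 and Tap1 of class I, and H2-Aa and H2-Eb1 of class II. A match is a run of letters, not a shown binding site.

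The stretches below are printed because their genes move together between mice or lead the daily changes described further on. Each lies before the start site and is written 5′ to 3′ on the strand of the gene, with coordinates of GRCm38.p6. Capitals mark the response element core in the first 9 and the Y box in the last 3, in either orientation, and matches that overlap run together.
Ifit1, chr19:34640770-34640848, plus strand: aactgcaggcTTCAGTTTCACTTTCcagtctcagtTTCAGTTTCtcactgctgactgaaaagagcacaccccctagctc
Ifit3, chr19:34583392-34583470, plus strand: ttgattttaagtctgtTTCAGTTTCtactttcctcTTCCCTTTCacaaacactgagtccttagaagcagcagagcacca
Ifit3b, chr19:34607788-34607866, plus strand: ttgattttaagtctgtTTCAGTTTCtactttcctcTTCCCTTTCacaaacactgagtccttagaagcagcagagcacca
Isg15, chr4:156200841-156200919, minus strand: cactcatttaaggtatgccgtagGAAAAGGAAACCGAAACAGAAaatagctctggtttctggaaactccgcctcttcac
Rsad2, chr12:26456528-26456606, minus strand: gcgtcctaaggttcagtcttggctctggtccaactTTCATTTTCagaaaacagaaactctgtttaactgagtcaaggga
Gbp2, chr3:142620570-142620648, plus strand: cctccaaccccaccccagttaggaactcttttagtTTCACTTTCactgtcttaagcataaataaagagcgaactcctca
Igtp, chr11:58199487-58199555, plus strand: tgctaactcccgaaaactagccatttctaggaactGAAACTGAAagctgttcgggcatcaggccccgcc
Irgm1, chr11:48871421-48871479, minus strand: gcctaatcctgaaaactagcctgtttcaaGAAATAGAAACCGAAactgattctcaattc
B2m, chr2:122147513-122147591, plus strand: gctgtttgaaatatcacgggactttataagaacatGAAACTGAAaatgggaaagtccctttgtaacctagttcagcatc
H2-D1, chr17:35263006-35263083, plus strand: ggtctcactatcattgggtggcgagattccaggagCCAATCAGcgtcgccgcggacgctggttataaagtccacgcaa
H2-Aa, chr17:34287832-34287909, minus strand: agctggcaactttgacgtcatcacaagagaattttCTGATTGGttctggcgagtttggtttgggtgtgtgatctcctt
H2-Eb1, chr17:34305770-34305847, plus strand: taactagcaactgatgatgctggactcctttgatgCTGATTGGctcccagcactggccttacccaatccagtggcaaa
In Ifit1 the core letters began 109, 103 and 84 bases before the start site, and in Isg15 78, 72 and 66 bases before it. The stretches of Ifit3 and Ifit3b were the same in 79 of 79 letters. The windows of Cmpk2, Ifi47, Irf7, Irf9, Oasl1, Oasl2, Tapbp and Xaf1 held none of the 3 sets of letters.

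The members differed widely in level. Compared per length, as mean CPM per kilobase of gene model, the genes of MHC class I led. B2m, the light chain that all class I molecules share, was at 1917 CPM per kilobase, and the class I heavy chain genes H2-K1 and H2-D1 were at 616 and 238. Bst2, which tethers budding viruses to the cell surface, followed with 225 CPM per kilobase. Cd74, the invariant chain of class II, was at 42.6, and Tapbp, the chaperone that links class I to the peptide transporter, at 25.7. The other class II genes lay lower, at 16.5 CPM per kilobase for H2-Eb1, 15.1 for H2-Ab1 and 11.5 for H2-Aa. Among the transcription factors, Stat2 was at 15.7, Irf7 at 10.7, Irf1 at 8.99 and Irf9 at 6.84. Isg15, a ubiquitin-like modifier, was at 12.0, whereas the lowest members were Ifit2 (0.808), Oasl2 (0.741) and Ifi44 (0.471). H2-K1 and H2-D1 share 90.6% of their letters over 1404 aligned transcript bases, and reads that match both may have been counted for either, so their split is uncertain. H2-D1 (753724 counts) also shares 90.1% over 415 bases with H2-Q10, which had 3069785 counts. Both genes share shorter stretches with other class I genes such as H2-T23 (247183 counts), so their levels may hold reads of these genes too.

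The members also differed in how far mice within a group (same genotype, same ZT) lay apart. The SD of log2 CPM around the 12 group means had a median of 0.318 over the members, against 0.259 over all tested genes and 0.181 over those with at least 1 CPM. It was largest for Gbp2, a guanylate-binding GTPase (0.62). Ifit1, which binds viral RNA, and Ifit3b followed (both 0.48), then Rsad2, the antiviral enzyme viperin (0.48), and Oasl1 (0.45). Gbp2 ran from 2.18 to 20.8 CPM, and its highest mouse was WT mouse c of ZT18. Rsad2 ran from 2.33 to 17.8 CPM and Ifit1 from 3.65 to 17.6 CPM, both highest in WT mouse c of ZT22. The SD was smallest for Tapbp (0.09), H2-D1 (0.13) and H2-K1 (0.14). H2-K1 ran only from 1291 to 2055 CPM over all 36 mice.

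**Figure D1:**
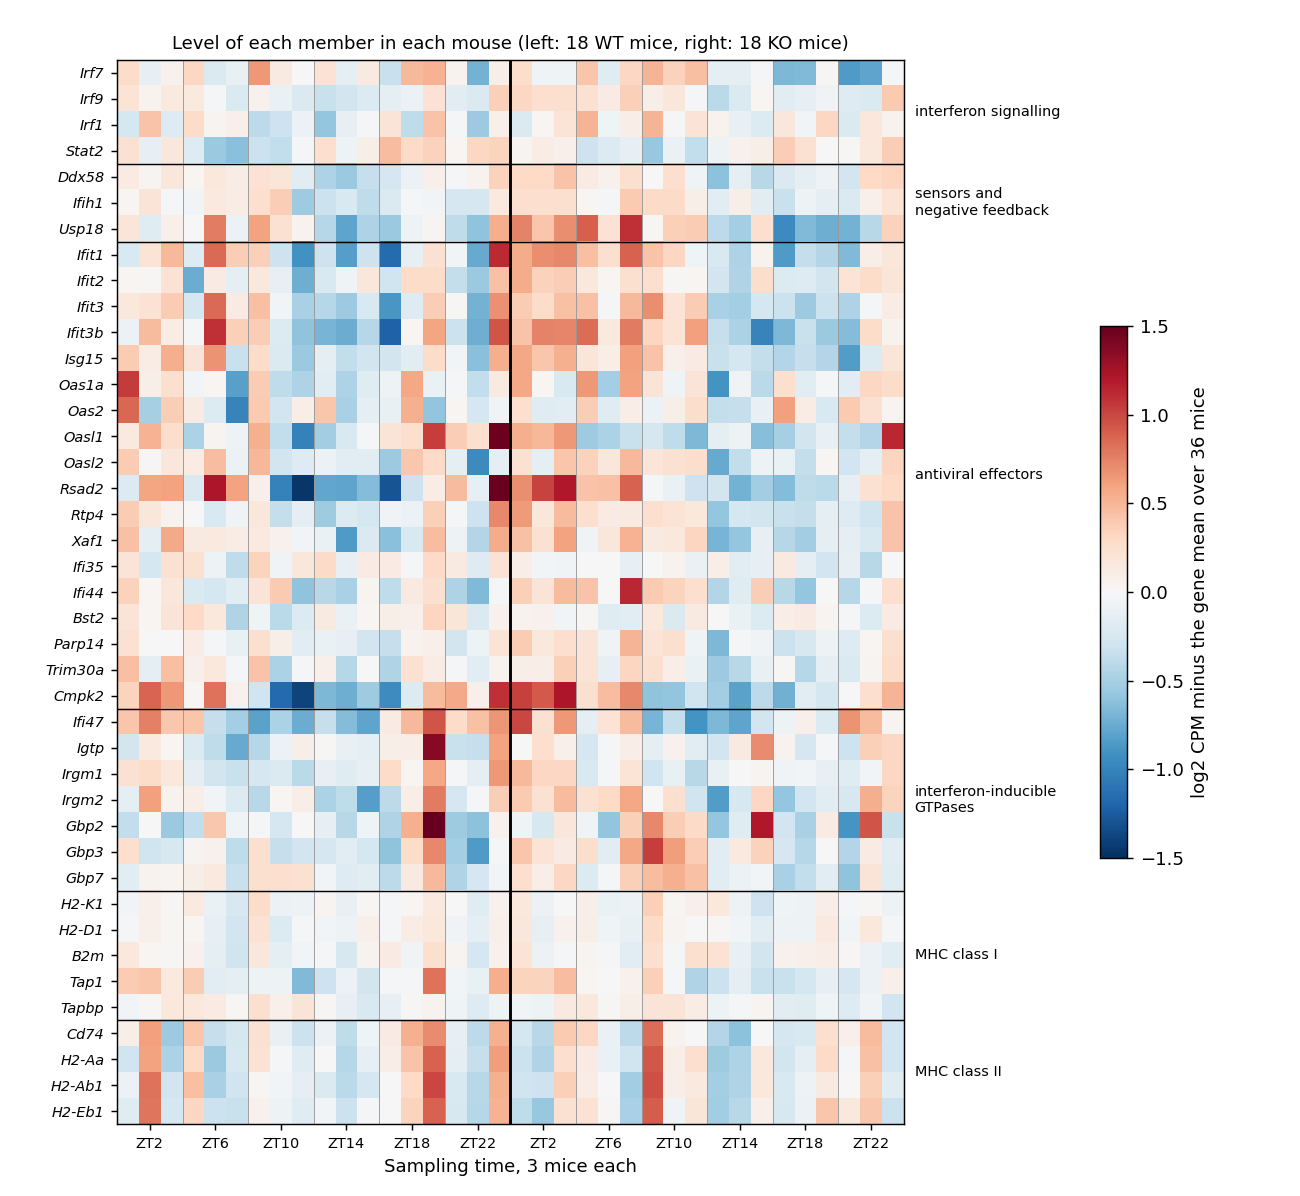
Colour gives the log2 CPM of each member (rows, grouped by role) in each mouse (columns, 3 per sampling time, WT left and KO right) minus the mean of that gene over the 36 mice. Antiviral effectors were mostly above their mean at ZT2 and below it at ZT14 in both genotypes, whereas the 4 MHC class II genes rose and fell together in single mice.

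No member differed between the genotypes when sampling time was taken into account. The adjusted p (edgeR quasi-likelihood test, Benjamini-Hochberg over all 17994 genes, threshold 0.05) passed for 0 of 41 members, against 0.950% of all tested genes, and DESeq2 also called none. An unadjusted p under 0.05 was reached by 3 of 41 members and by 12.1% of all tested genes. The log2 difference KO minus WT was above 0 for 25 members and its median was 0.034, against -0.001 over all genes.

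The 8 members with the smallest p came from several roles. Ifi35, an interferon-induced leucine zipper protein, lay between 19.4 and 31.7 CPM in WT (median 27.6) and between 18.9 and 27.7 CPM in KO (median 24.4). Its log2 difference was -0.14 ± 0.058 (SE), with an edgeR adjusted p of 0.309. Gbp3, a guanylate-binding GTPase, lay between 3.45 and 10.2 CPM in WT (median 5.24) and between 4.58 and 12.7 CPM in KO (median 6.84), a log2 difference of 0.28 ± 0.116 (adjusted p = 0.313). The ranges of the genotypes overlapped for both genes. Ifi44 had medians of 2.60 CPM in WT and 3.25 CPM in KO, within ranges of 1.76 to 3.66 and 1.87 to 6.08 CPM, and a log2 difference of 0.25 ± 0.115. Oasl1, which restrains the translation of Irf7, had medians of 14.3 CPM in WT and 10.3 CPM in KO, within ranges of 6.34 to 35.3 and 7.97 to 28.0 CPM, and a log2 difference of -0.28 ± 0.144. For the RNA sensor Ifih1 (MDA5) the medians were 24.9 and 27.0 CPM, within 17.6 to 32.9 and 20.2 to 33.4 CPM, and the log2 difference was 0.11 ± 0.061. For Irf1, the factor induced by interferon gamma, the medians were 33.7 and 36.4 CPM, within 23.5 to 47.4 and 30.1 to 50.02 CPM, and the log2 difference was 0.15 ± 0.081. The differences were 0.09 ± 0.058 for Irf9 (medians 34.2 and 37.9 CPM, ranges 28.9 to 46.8 and 27.6 to 47.9 CPM) and 0.15 ± 0.099 for Ifit2 (medians 3.06 and 3.49 CPM, ranges 1.85 to 4.22 and 2.27 to 4.57 CPM). In every case the spread between mice exceeded the distance between the medians. Irf9 and Rnf31 lie on the same strand and overlap, so part of the reads may belong to either.

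The errors were smallest for Tapbp, H2-D1, H2-K1 and B2m of class I. The log2 differences were 0.01 ± 0.045 for H2-K1, 0.03 ± 0.042 for H2-D1, 0.02 ± 0.048 for B2m and -0.03 ± 0.032 for Tapbp. Tap1 had a larger error, with a log2 difference of -0.09 ± 0.087. H2-K1 lay between 1352 and 1931 CPM in WT (median 1603) and between 1291 and 2055 CPM in KO (median 1582). B2m had medians of 1665 CPM in WT and 1635 CPM in KO. The 4 class II genes were all slightly below 0, from -0.05 ± 0.128 for H2-Ab1 to -0.07 ± 0.121 for Cd74, with larger errors. Cd74 had medians of 55.2 CPM in WT and 56.0 CPM in KO, within 39.7 to 94.9 and 37.7 to 103 CPM.

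**Figure D2:**
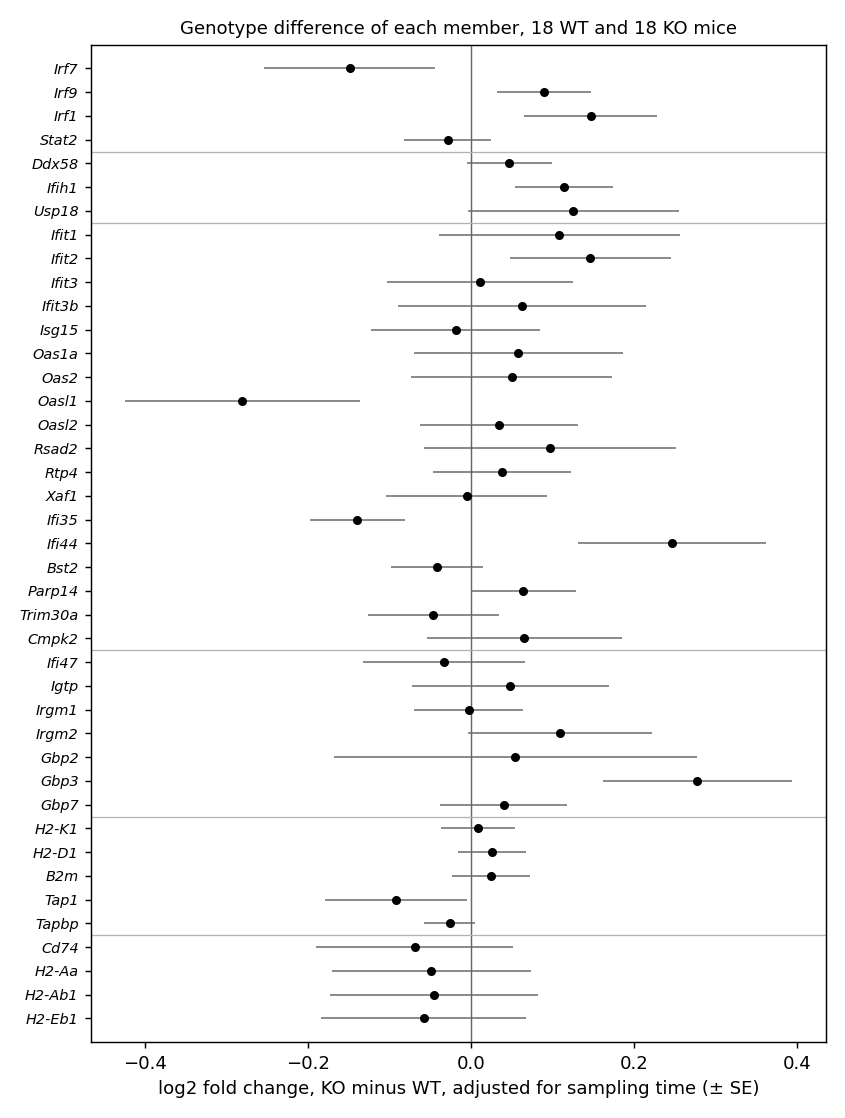
Points give the log2 fold change of KO over WT for each member, adjusted for sampling time, and bars the SE of the edgeR fit (18 WT and 18 KO mice). The estimates run from -0.28 for Oasl1 to 0.28 for Gbp3, and Tapbp, H2-D1, H2-K1 and B2m have the shortest bars.

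At single sampling times 0 of 41 members passed in any of the 6 comparisons, each of 3 WT with 3 KO mice. The shares of all genes called were 0.0278% at ZT2, 0.0111% at ZT6, 0.0167% at ZT10, 0.0167% at ZT14, 0.0222% at ZT18 and 0.0222% at ZT22, and DESeq2 called none of the members either. Unadjusted p-values under 0.05 fell to 1 member at ZT2, 1 at ZT6, 2 at ZT10, 0 at ZT14, 10 at ZT18 and 0 at ZT22. The shares of all genes with such a p were, in the same order, 5.43%, 4.37%, 4.12%, 5.34%, 5.36% and 4.73%. The median log2 difference KO minus WT over the members was 0.12 at ZT2, 0.09 at ZT6, 0.17 at ZT10, -0.02 at ZT14, -0.29 at ZT18 and 0.01 at ZT22. Over all genes it stayed between -0.008 and 0.006.

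ZT18 was the time with the most members below 0, 39 of 41. Estimates were above 0 in 26 of 41 at ZT2, 33 at ZT6, 34 at ZT10, 20 at ZT14 and 21 at ZT22. The members were read in the same mice and moved together between them, so these signs are not 41 separate observations. At ZT18 the KO mice were all below the WT mice in 8 of 41 members. Over all genes 10.4% had no overlap in either direction and 5.16% had KO below. These 8 were Usp18, Isg15, Oasl1, Rtp4, Ifi47, Igtp, Irgm1 and Tap1. Gbp2 was at 2.95, 5.83 and 20.8 CPM in the WT mice and at 2.88, 3.30 and 4.38 CPM in the KO mice, a log2 difference of -1.48 ± 0.48 with an edgeR adjusted p of 0.744. The groups overlapped, and a single WT mouse was far above the rest. Igtp, a GTPase that acts on vacuoles of parasites, was at 30.6, 30.9 and 74.4 CPM in WT and at 24.1, 28.4 and 29.8 CPM in KO, without overlap. Irf7, the master factor of the type I response, was at 31.1, 54.8 and 56.3 CPM in WT and at 24.6, 24.7 and 39.5 CPM in KO, with overlap. Ifi47 was at 21.2, 27.2 and 37.1 CPM in WT and at 16.7, 18.3 and 20.4 CPM in KO. Tap1, the peptide transporter of class I, was at 24.91, 24.97 and 44.6 CPM in WT and at 20.2, 21.1 and 23.3 CPM in KO. In Gbp2, Igtp and Tap1 the spread of the WT mice came from mouse c. Irf7 overlaps Phrf1, and Tap1 overlaps Psmb9, on the opposite strand, and without strand in the libraries reads from the shared parts cannot be told apart.

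The pattern at ZT18 leaned on WT mouse c. Without it, 31 of 41 members were below 0, the median was -0.14, and 0 members had an unadjusted p under 0.05. Without WT mouse b, with its high Kupffer cell markers, 39 of 41 were below 0, the median was -0.29, and 9 members had an unadjusted p under 0.05. Neither fit called a member. Some lists of cell type markers also lay below 0 at ZT18. All 11 Kupffer cell and macrophage markers had estimates below 0 (median log2 difference -0.62, 10 with an unadjusted p under 0.05, 0 called), as had all 7 dendritic cell markers (median -0.32, 0 with an unadjusted p under 0.05). In the other lists some estimates were above 0. These were 5 of 8 hepatocyte, 3 of 6 stellate cell and fibroblast and 3 of 5 red blood cell markers. The count was 2 of 6 for endothelial and 2 of 6 for B cell markers. It was 1 of 9 for T and NK cell, 1 of 5 for cholangiocyte and 1 of 3 for neutrophil markers. Without WT mouse b the Kupffer cell and macrophage markers were still below 0 in 11 of 11, with a median of -0.23 and 0 with an unadjusted p under 0.05, and without mouse c the median was -0.76. The dendritic cell markers were below 0 in 5 of 7 without mouse b and in 7 of 7 without mouse c. The part of these cells in the members' values was not tested. Without mouse c the log2 difference of Gbp2 was -0.32 and that of Igtp -0.16.

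At the other times the members without overlap had the KO mice above the WT mice. They were 10 of 41 at ZT2 (12.9% of all genes in either direction, 6.21% with KO above), 3 at ZT6 (8.41%), 5 at ZT10 (7.95%), 2 at ZT14 (10.2%) and 1 at ZT22 (9.93%). At ZT2 Usp18, the protease that removes ISG15 and damps the interferon receptor, was at 7.04, 8.42 and 9.04 CPM in WT and at 10.6, 13.0 and 13.3 CPM in KO. Rsad2 was at 5.52, 9.65 and 9.68 CPM in WT and at 10.3, 12.9 and 14.7 CPM in KO. Cmpk2, a mitochondrial nucleotide kinase that neighbours Rsad2, was at 7.503, 9.27 and 10.9 CPM in WT and at 11.2, 12.1 and 13.8 CPM in KO. In these 3 genes all KO mice of ZT2 were above all WT mice, with no adjusted p under 0.05. At ZT10 Gbp3 was at 4.91, 5.09 and 7.40 CPM in WT and at 8.03, 9.60 and 12.7 CPM in KO.

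The interaction test asked whether the genotype difference changed over the day. It called 0 of 41 members and 0% of all genes. Unadjusted p-values under 0.05 were seen for 2 members, Gbp2 and Usp18, and for 2.69% of all genes, and DESeq2 called 0 members. A change of sign between ZT18 and the other times was therefore not shown.

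**Figure D3:**
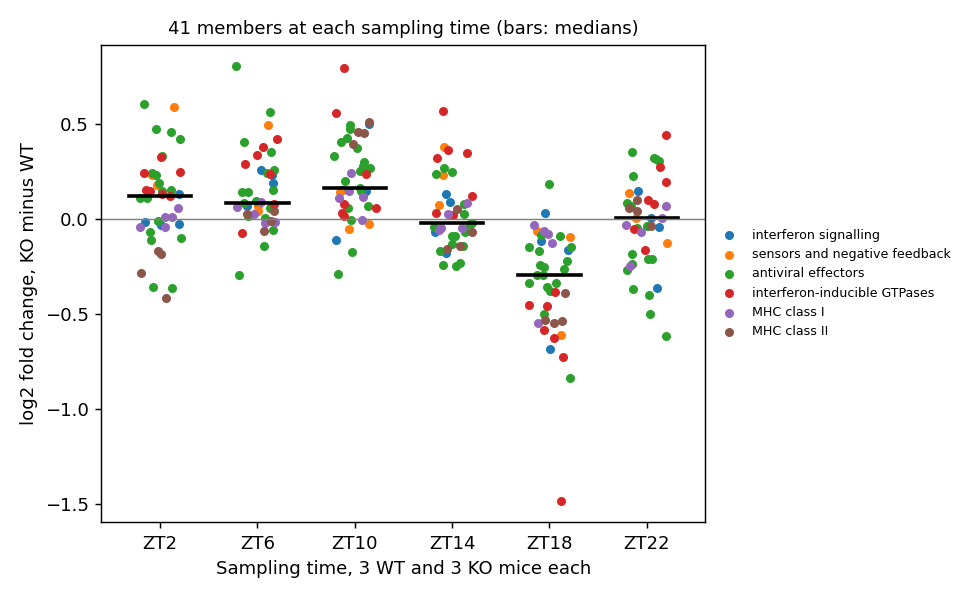
Each point is the log2 fold change of KO over WT of 1 member at 1 sampling time (3 WT and 3 KO mice), coloured by role, and black bars are medians over the 41 members. The median is -0.29 at ZT18 and between -0.02 and 0.17 at the other times.

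Time of day moved many members. A 24 h rhythm, tested as sine and cosine terms with genotype in the model over all 36 mice, was called for 25 of 41 members, against 50.5% of all genes, so their share was near that of the liver transcriptome. Peak-to-trough folds of the called members ran from 1.21 to 3.01 with a median of 1.44. The fitted peak lay between ZT0 and ZT6 in 18 of the 25, between ZT6 and ZT12 in 3 (Irf7, Gbp7 and Tapbp), between ZT12 and ZT18 in 0, and after ZT18 in 4 (Stat2, Oasl1, Ifi47 and Irgm1). By role, 3 of 4 signalling genes, 3 of 3 sensors and feedback genes, 13 of 18 effectors, 4 of 7 GTPases, 2 of 5 class I genes and 0 of 4 class II genes were called.

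Cmpk2 and Rsad2 had the largest swings. Cmpk2 was at 7.503 to 13.8 CPM at ZT2 (median 11.04, 6 mice) and at 2.27 to 4.84 CPM at ZT10 (median 3.92), so these times did not overlap. Its fitted fold was 3.01 with a peak at ZT1.36 (edgeR adjusted p = 4.9e-09). Rsad2 was at 5.52 to 14.7 CPM at ZT2 (median 10.01) and at 3.68 to 5.29 CPM at ZT14 (median 3.99), with a fold of 2.88 and a peak at ZT2.27 (adjusted p = 1.5e-06). Its highest mouse was at ZT22 with 17.8 CPM.

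Ifi47 and Irgm1 are GTPases that peaked around the end of the night. Ifi47 was at 22.8 to 38.7 CPM at ZT2 (median 28.0) and at 10.4 to 15.1 CPM at ZT10 (median 11.7), without overlap, with a fold of 2.48 and a peak at ZT23.7 (adjusted p = 2.5e-08). Irgm1 was at 54.4 to 68.3 CPM at ZT2 (median 59.8) and at 36.6 to 45.1 CPM at ZT10 (median 40.2), also without overlap, with a fold of 1.41 and a peak at ZT22.6 (adjusted p = 0.00036). Stat2 was highest in the dark phase. It was at 91.4 to 126 CPM at ZT18 (median 114) and at 59.1 to 83.6 CPM at ZT6 (median 76.3), with a fold of 1.55 and a peak at ZT19.9 (adjusted p = 9.0e-08).

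The other members of the 10 with the smallest p peaked in the light phase. Ddx58, the RNA sensor RIG-I, was at 23.6 to 31.0 CPM at ZT2 (median 27.0) and at 15.0 to 20.9 CPM at ZT14 (median 16.96), with a fold of 1.44 and a peak at ZT2.76 (adjusted p = 1.9e-05). Usp18 was at 7.51 to 17.01 CPM at ZT6 (median 11.4) and at 4.13 to 8.24 CPM at ZT18 (median 5.24), a fold of 2.04, and these times overlapped. Ifit3b, a near copy of Ifit3 (97.8% of letters over 1700 aligned bases), was at 2.57 to 5.56 CPM at ZT6 (median 3.90) and at 1.30 to 2.05 CPM at ZT14 (median 1.74), a fold of 2.09. Reads may have moved between Ifit3 and Ifit3b, and Ifit3 itself had a fold of 1.69 with a peak at ZT4.63. Isg15 was at 9.47 to 13.0 CPM at ZT2 (median 12.1) and at 6.77 to 8.003 CPM at ZT14 (median 7.09), a fold of 1.63. Tapbp moved little but regularly. It was at 88.8 to 99.2 CPM at ZT10 (median 96.2) and at 69.0 to 81.3 CPM at ZT22 (median 77.0), a fold of 1.21 with a peak at ZT7.83 (adjusted p = 2.9e-05).

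The other 15 called members were Oasl1, Xaf1, Ifit1, Ifit3, Irf9, Rtp4, Ifih1, Parp14, Tap1, Irgm2, Irf7, Trim30a, Gbp7, Oasl2 and Ifi44. Their folds ran from 1.27 for Ifih1 to 1.95 for Oasl1. Rtp4 overlaps Masp1 on the opposite strand, a liver gene with 200632 counts against 19145 for Rtp4, so its values may hold reads of Masp1. The 16 members that did not pass were Igtp, Oas1a, Gbp3, Ifit2, Gbp2, Bst2, Oas2, Irf1, H2-K1, Ifi35, H2-Aa, Cd74, H2-Eb1, B2m, H2-D1 and H2-Ab1. Their adjusted p-values ran from 0.052 for Igtp to 0.91 for H2-Ab1. The fitted fold was 1.04 for H2-K1, 1.03 for B2m and 1.08 for Cd74.

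**Figure D4:**
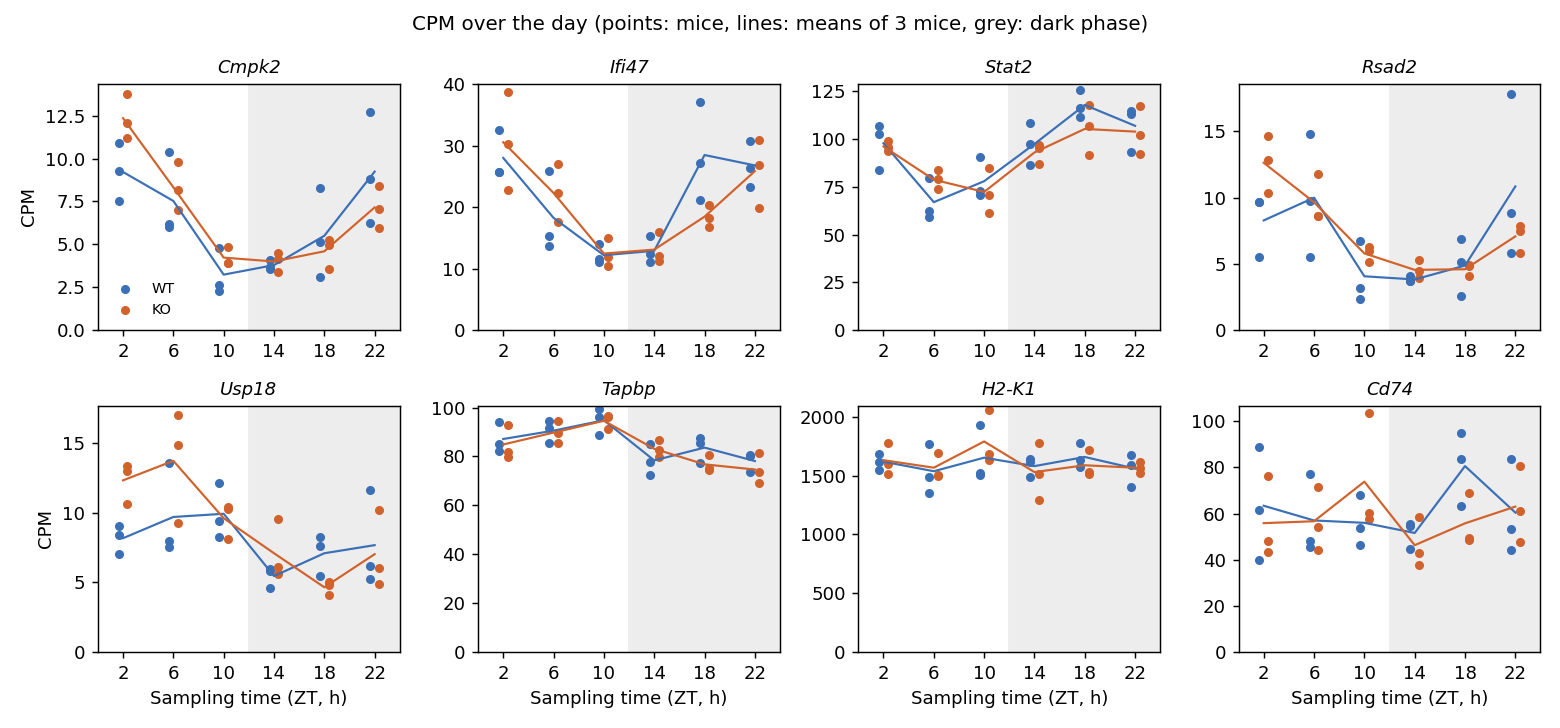
CPM of 8 members (panels) against sampling time, with a point per mouse, lines through the means of 3 mice, WT in blue and KO in orange, and the dark phase shaded. Cmpk2, Ifi47 and Rsad2 are lower at ZT10 than at ZT2 in both genotypes, Stat2 is highest at ZT18, and H2-K1 stays between 1291 and 2055 CPM.

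Within the genotypes the counts of rhythmic members differed more than a test of the difference allows to read. In WT 8 of 41 members were called, against 33.1% of all genes, and in KO 27 of 41, against 28.9% of all genes. The 8 called in WT were Ifi47, Stat2, Cmpk2, Irgm1, Rsad2, Oasl1, Ddx58 and Igtp, and 7 of them (87.5%) were also called in KO, which is 25.9% of the KO calls. The test of a rhythm difference between the genotypes called 0 of 41 members and 0% of all genes, and DESeq2 also called 0 members. An unadjusted p under 0.05 was reached by 6 of 41 members (Irf7, Rtp4, Irgm1, Ifi47, Gbp3 and Tap1) and by 3.07% of all genes. Hence a difference in rhythm was not shown for any member.

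The fitted curves give the size of what was seen. Irf7 had an amplitude (log2, mesor to peak) of 0.13 ± 0.11 (SE, 18 mice) in WT and 0.47 ± 0.094 in KO, where it peaked at ZT8.10. Usp18 had 0.31 ± 0.13 in WT and 0.73 ± 0.11 in KO, with peaks at ZT5.51 and ZT5.52. Cmpk2 had 0.81 ± 0.15 in WT and 0.81 ± 0.085 in KO, with peaks at ZT0.605 ± 0.72 and ZT2.15 ± 0.40 (h, SE). Ifi47 peaked at ZT22.7 ± 0.61 in WT and at ZT0.652 ± 0.53 in KO, and Irgm1 at ZT21.3 ± 0.89 and ZT0.563 ± 1.2. Tap1 peaked at ZT23.3 ± 1.4 in WT and at ZT3.34 ± 0.95 in KO. The fitted peak was later in KO for Cmpk2, Ifi47, Irgm1 and Tap1, alike for Usp18, and earlier for Irf7, whose WT peak at ZT12.0 had an SE of 3.3 h. These genes were picked after their values were seen, and no adjusted p for a difference passed. The KO calls, 27 with all mice, fell when mice were left out, as did the share over all genes (28.9% with all mice). They were 13, 19 and 18 without the mice lettered a, b and c, against 14.9%, 17.7% and 13% of all genes. With sampling time as a factor, over all KO mice, 18 members and 20.4% of all genes were called. Without WT mouse c of ZT18, 11 members were called in WT, against 31.9% of all genes. Xaf1, Irgm2, Tap1 and Tapbp were added and Igtp was lost, and 1 member had an unadjusted p under 0.05 for the rhythm difference. Without WT mouse b of ZT18, 9 members were called in WT, against 31.6% of all genes, and 4 members had an unadjusted p under 0.05 for the rhythm difference.

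Other genes of the pathway, listed with earlier results of these data known, were read in the same fits. Of 27 interferon ligands, receptors and signalling genes 25 could be tested. Ifnb1 and Ifng were below the count minimum. The receptor genes were present, with medians of 28.98 CPM for Ifnar1, 45.5 for Ifnar2, 16.2 for Ifngr1 and 13.2 for Ifngr2, whereas Ifnlr1 was at 0.153 CPM. By genotype, where 0.950% of all genes were called, 1 of these 25 genes fell in KO, 0 of 43 other interferon-stimulated genes changed, 1 of 17 genes of class I assembly and the immunoproteasome fell, and 0 of 10 genes of class II loading changed. Irf5, a factor downstream of Toll-like receptors, lay between 9.82 and 19.0 CPM in WT (median 12.0) and between 5.04 and 16.3 CPM in KO (median 9.75), a log2 difference of -0.43 ± 0.099 (edgeR adjusted p = 0.023). Psme1, a proteasome activator subunit induced by interferon gamma, had medians of 99.3 CPM in WT and 84.9 CPM in KO, a log2 difference of -0.18 ± 0.045 (adjusted p = 0.032). Both ranges overlapped. Irf5 lost its call without any of the letters a, b or c, Psme1 without a or c, and both with sampling times pooled.

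Rhythms were called in 13 of the 25 signalling genes, 22 of the 43 other interferon-stimulated genes, 9 of the 17 class I genes and 2 of the 10 class II genes, again against 50.5% of all genes. The 6 with the smallest p were Lgals9, a galectin (fold 1.91, peak ZT2.80), the chaperones Calr (1.81, ZT21.2) and Pdia3 (1.74, ZT19.9), which fold class I among many other proteins, Helz2 (1.64, ZT21.7), Trim12c (1.85, ZT3.14) and Rfxank, a factor of class II promoters (2.68, ZT21.0). The class II genes themselves showed no rhythm, as given above.

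Between mice of the same group the members moved together. Co-variation was read as Pearson r over 36 mice of log2 CPM minus the mean of each genotype and time group. Over the 820 pairs of members the median r was 0.357 and 29.4% of pairs were above 0.5, whereas over all pairs of tested genes the median was -0.001 and 2.06% were above 0.5. These are descriptions, since all values of a mouse share 1 library. The 4 class II genes were closest, with a median r of 0.961 over 6 pairs. The GTPases had 0.525, the class I genes 0.482 and the effectors 0.474 among themselves. With class II, class I had 0.496, the GTPases 0.429, interferon signalling 0.283, the effectors 0.238 and the sensors 0.148. Within interferon signalling, Irf1 had r from 0.486 to 0.565 with the class II genes, whereas Stat2 had -0.305 to -0.181. Stat2 had r from -0.31 to -0.14 with the Ifit genes and -0.004 with Irf7.

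Named pairs, 23 in all, were tested by permuting mice within groups (100000 resamples, two-sided, Benjamini-Hochberg over the pairs), and 17 had an adjusted p under 0.05 for r. Ifit1 and Ifit3 had r = 0.902 and rho = 0.832, each with a permutation p of 1e-05, the smallest these resamples can give (adjusted p = 4.6e-05), and r = 0.864 without the 2 mice farthest from the median of Ifit1. H2-Aa and H2-Ab1 had r = 0.968 and rho = 0.945, and 0.959 without the 2 farthest mice. H2-K1 and H2-D1 had r = 0.885 and rho = 0.897, but near-identical stretches may share reads. Igtp and Irgm2, which overlap on the same strand, had r = 0.828 and rho = 0.799. Irf7 and Oasl2 had r = 0.745 and rho = 0.693 (permutation p = 0.00094 and 0.00127, adjusted p = 0.00216 and 0.00282). Gbp2 and Igtp had r = 0.735 and rho = 0.554 (permutation p = 0.00328 and 0.0115, adjusted p = 0.00629 and 0.0178), and r = 0.608 without the 2 farthest mice. Without the mice lettered c it had r = 0.450 (adjusted permutation p = 0.566), and -0.013 without the 2 farthest of these, and without b its adjusted permutation p was 0.135. The call of Irf7 with Oasl2 was lost without any letter (adjusted permutation p from 0.0685 to 0.157). Its r was 0.718 without a, 0.776 without b and 0.740 without c. That of Igtp with Irgm2 was lost without c (r = 0.722, adjusted permutation p = 0.161). Leaving out a letter kept 24 mice, and fewer mice per group leave fewer orders to permute. Leaving out each letter kept the calls of Ifit1 with Ifit3, H2-K1 with H2-D1 and with B2m, Cd74 with H2-Aa and with H2-Eb1, and H2-Aa with H2-Ab1. Ifit1 was less tied to Cd74 and H2-K1. Cd74 and Ifit1 had r = 0.327 and rho = 0.239 (permutation p = 0.12 and 0.255, adjusted p = 0.145 and 0.279). H2-K1 and Ifit1 had r = 0.291 and rho = 0.291 (permutation p = 0.159 and 0.156, adjusted p = 0.183 and 0.182). Irf9 and Stat2, partners in one complex, had r = 0.351 and rho = 0.286 (permutation p = 0.0873 and 0.158, adjusted p = 0.112 and 0.182).

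**Figure D5:**
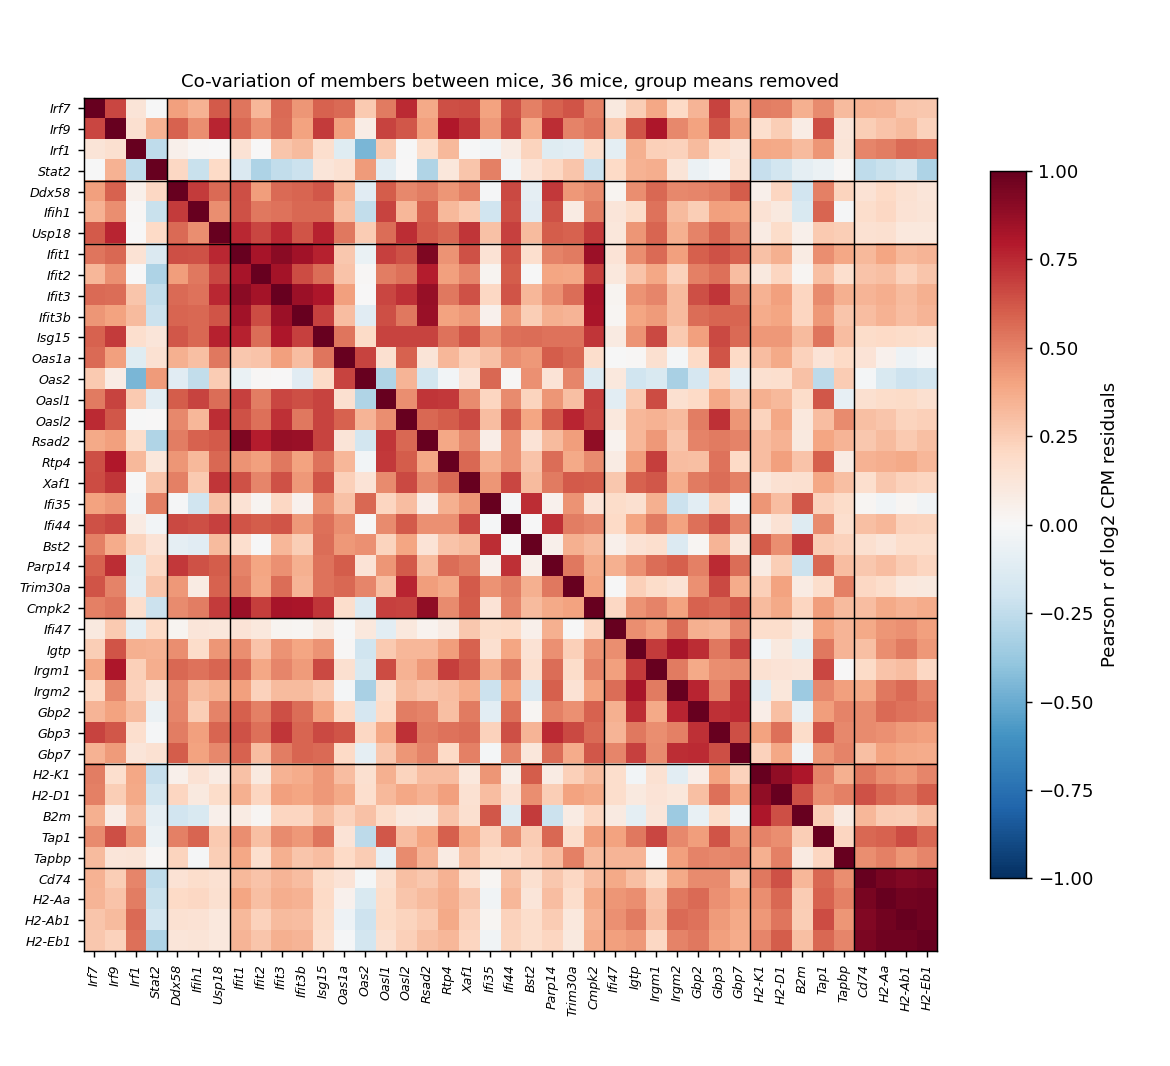
Colour gives Pearson r between members over 36 mice after the mean of each genotype and time group was removed, with lines between roles. The class II block is near 1 (median 0.961), the effectors form a looser block (0.474), and Stat2 is below 0 with each of the Ifit genes.

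Marker lists of other cells moved with several roles, and class II had the highest r with B cell markers. On the mean level of each list per mouse, group means removed, MHC class II had r of 0.679 with the B cell markers, 0.628 with the T and NK cell markers, 0.420 with the dendritic cell markers and 0.410 with the Kupffer cell and macrophage markers over 36 mice, and -0.350 with the hepatocyte markers. The 6 B cell markers, all tested, summed to 2.94 to 7.73 CPM in WT and to 2.39 to 7.503 CPM in KO, and Fcmr was at 0 in the lowest library. The T and NK cell markers (9 of 10 tested) summed to 1.82 to 5.46 CPM in WT and 1.29 to 4.52 CPM in KO. The 11 Kupffer cell and macrophage markers summed to 243.5 to 789 CPM in WT and 256 to 492 CPM in KO, and none was at 0. Cd74 and Cd79a of B cells had r = 0.577 and rho = 0.614 (permutation p = 0.00375 and 0.00135, adjusted p = 0.00663 and 0.00282). Cd74 and Clec4f had r = 0.4996 and rho = 0.608 (permutation p = 0.0192 and 0.00271, adjusted p = 0.0276 and 0.00479). With 24 mice the call of Cd74 with Clec4f was lost without any of the letters. Its r was 0.539 without a, 0.6475 without b and 0.336 without c (adjusted permutation p for r of 0.133, 0.0685 and 0.374). The call of Cd74 with Cd79a was lost without a (r = 0.475, adjusted permutation p = 0.229) or c (0.513 and 0.161). It was kept without b (r = 0.872, adjusted permutation p = 0.00423). Ifit1 and Clec4f had r = 0.233 and rho = 0.146 (permutation p = 0.317 and 0.5, adjusted p = 0.331 and 0.508). The interferon-inducible GTPases had r of 0.144 with the Kupffer cell markers and -0.541 with the hepatocyte markers. They had 0.404 with the cholangiocyte, 0.373 with the T and NK cell and 0.364 with the B cell markers. Red blood cell markers had r of 0.618 with interferon signalling, 0.546 with class I and 0.418 with the effectors. Class I also had 0.404 with the B cell, 0.389 with the Kupffer cell and -0.494 with the stellate cell and fibroblast markers. Differences between these r were not tested, and the part of these cells in the levels was not tested.

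Among members, Irf7 was nearest to Oasl2 (r = 0.745), H2-K1 to H2-D1 (0.885) and Cd74 to H2-Aa (0.953). The nearest genes outside the 41 members were looked up for these 3 among genes with at least 1 CPM. Irf7 was followed by Ly6e (r = 0.774), Apol9a (0.757), Apol9b (0.693), Ly6a (0.687) and Ifitm3 (0.660). H2-K1 was followed by H2-Q7 (0.874), Psmb8 of the immunoproteasome (0.867), Fuca1 (0.810), Acot11 (0.786) and Dera (0.784). Cd74 was followed by the class II loading genes H2-DMb1 (0.893) and H2-DMa (0.830), and by Rasgrp1 (0.750), Hk3 (0.733) and Coro1a (0.732).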

How the data were processed

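Livers of 18 THRB+/- (WT) and 18 THRB-/- (KO) mice, 3 per genotype and sampling time, were grouped by the sample labels. The authors mapped non-directional poly(A) libraries with HISAT2 to GRCm38 and counted with featureCounts. The deposited values are raw counts per gene, without normalization. Versions and the handling of reads with several matches are not given in the sources used here. Median depth was 33540565 counts in WT and 34190848 in KO, which limits genes of few CPM.

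Genes with at least 100 counts in all were tested with edgeR 4.0.16 (TMM, glmQLFit, glmQLFTest, limma 3.58.1, R 4.3.3), Benjamini-Hochberg threshold 0.05, for genotype with time as a factor, for genotype at each time, for their interaction, and for sine and cosine terms of 24 h. DESeq2 1.42.0 was an alternative. Log2 CPM used a prior count of 2. Scripts were tested on simulated data. Members, lists, pairs and rules were chosen with earlier results of these data known. Members with the 8 smallest genotype p, the 10 smallest rhythm p and the extremes of spread are given in full, and of the pathway genes at most 6 called per comparison. Near copies were found with BLAST 2.17.0. The study's methods give 3 mice per time point, so p-values measure the spread between mice.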

Additional observations from a re-analysis of the deposited data

How the results depend on the processing

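Each comparison at a single time had 3 mice per group. The tests of genotype, of genotype at each time, of the interaction and of the rhythm difference called 0 members under every alternative run: DESeq2, its size factors in edgeR, no filter on low counts, filterByExpr, robust estimation, leaving out each letter, leaving out WT mouse b or c of ZT18 (chosen after seeing the data), and, where they apply, the replicate block, time as a factor and pooled times. With all mice, the members called rhythmic in the joint fit of both genotypes numbered 21 to 26. They were 21 with time as a factor (45% of all genes) and 23 with no filter on low counts (28.9% of 31193 genes). They were 26 with DESeq2 (52.1%) and with filterByExpr (54.2%). Without the letters a, b and c they numbered 17, 22 and 24, against 40.8%, 42.2% and 37.1% of all genes. Leaving out mice, the members called rhythmic in WT numbered 4 to 11 and those in KO 13 to 27 (27 with all mice). In WT they were 6, 4 and 6 without the letters a, b and c, against 22.3%, 21.8% and 17.3% of all genes. With all mice the WT calls were 8 members, against 33.1% of all genes. Over all genes the KO calls fell from 5207 to between 2343 and 3188 when a letter was left out. Of the 23 pairs, 8 to 16 passed without 1 letter or mouse, and the r of H2-K1 and Alb, not called, ran from -0.366 to 0.368.

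The labels do not say what mice with the same letter share, though their animal numbers are often neighbours. The correlation of deviations of same-letter mice was over 0.1 in 16 of 18 pairs (median 0.204, lowest -0.061), and 17 of 18 WT mice correlated best with their own letter. The pair tests took the mice of a group as independent. With same-letter mice permuted together as a replicate block (chosen after seeing the data), 15 of the 23 pairs passed, against 17, with Ifit1 and Irf7 (adjusted permutation p = 0.0621) and H2-K1 and Tap1 (0.0622) lost. With the replicate block 387 genes in all were called for genotype, against 171 without it, 315 by DESeq2, 65 with sampling times pooled and 40 to 81 without a letter, and 0 members in each. At single times the 2 to 5 genes called became 1 to 19 under the alternatives (19 against 4 at ZT22 by DESeq2). Over all genes the WT rhythm calls fell from 5952 to 3113 without c, and the rhythm difference called 1 gene with the block.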

Other observations

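The genes outside the 41 members that were nearest to Gbp2 and Ifit1 between mice, added to the rule after values were seen, were drawn from different families. Gbp2 was followed by other GTPases, Gbp4 (r = 0.829), Gbp6 (0.801), Tgtp2 (0.798), Gbp9 (0.791) and Gbp10 (0.788), whose reads may be shared among near copies. Among members, Ifit1 was nearer to Rsad2 (r = 0.93), Ifit3 (0.902), Cmpk2 (0.852), Ifit3b (0.836) and Ifit2 (0.822), and Gbp2 was nearest to Irgm2 (0.760). Outside them, Ifit1 was followed by Samd9l (0.741), Parp12 (0.719), the RNA sensor Dhx58 (0.689), Uba7, the enzyme that activates ISG15 (0.678), and Arg1 of the urea cycle (0.676).

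Some mice were high or low across the roles. Over all 41 members WT mouse c of ZT18 averaged 0.451 above the mean on the log2 scale and WT mouse c of ZT22 averaged 0.402, whereas WT mouse b of ZT14 was lowest at -0.343. The SD of this average around the 12 group means was 0.19. The MHC class II genes were highest in KO mouse a of ZT10, 0.909 above their mean, and in WT mouse c of ZT18, 0.871 above it.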
